A study of Xenopus tropicalis with 4 samples.

Results

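The genes described here are the 247 genes, of 34177 gene identifiers counted, whose reads were more frequent in Xenopus tropicalis animal caps with SUV4-20H morpholinos and xPhf8 mRNA (xRescue) than in caps with xPhf8 mRNA alone (xPhf8). They were chosen on these same libraries, by CPM, the reads of a gene per 1000000 reads on genes of a library. A gene was taken where its mean over the 4 libraries was at least 20 CPM and its smaller xRescue value was at least 2 times its larger xPhf8 value. The difference between the groups is therefore how they were selected, and it is described here and not tested. In total, 6472 identifiers had a mean of at least 20 CPM, and the 247 members were 3.82% of them.

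Animal caps are pieces of future ectoderm which, kept in culture, form a mucociliary epidermis. RNA was taken at neurula stage NF16 from pooled caps, with 2 libraries per group. The xRescue embryos had received Xenopus Phf8 mRNA and translation-blocking morpholinos against suv4-20h1 and suv4-20h2, also called kmt5b and kmt5c. The xPhf8 embryos had received the same mRNA and no morpholino, labelled as control. Per the study's methods this mRNA encodes a truncated form of the protein. The paper states that this form lacks part of the catalytic domain, so that its activity is potentially reduced. It also reports that embryos given this mRNA alone had more multiciliated cells and stronger cilia staining. From expression data it proposes that the truncated form by itself acted more strongly than full-length human PHF8. Both groups thus carry the mRNA, and since the xPhf8 caps had no morpholino, injection of an oligonucleotide and loss of the enzymes cannot be told apart in this comparison.

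SUV4-20H enzymes convert monomethylated lysine 20 of histone H4 into its dimethylated and trimethylated forms, and PHF8 is a demethylase that removes the monomethyl mark among others. Many of the genes described below belong to the immediate-early response. These genes are transcribed within minutes of a growth factor, wound or stress signal, without new protein synthesis, and their messages are short-lived. Their best known products are the FOS and JUN proteins, which dimerise through leucine zippers into the transcription factor AP-1, and the feedback inhibitors that end the response.

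Reads on genes numbered 27803072 and 27014575 in xRescue replicates 1 and 2, against 26632491 and 43303059 in xPhf8 replicates 1 and 2. A count of 3 reads corresponded to between 0.0693 and 0.113 CPM. Replicate 1 of xRescue had reads on the fewest genes. It had reads on 14412 genes, against 16076 in xRescue replicate 2 and 16494 and 16652 in the xPhf8 libraries. The first principal component held 59.94% of the variance, and which libraries it separated is not shown here. The morpholinos block translation, so the messages of their targets do not check the knockdown. The message of kmt5b was at 101 and 125 CPM in xRescue and at 117 and 121 CPM in xPhf8, and that of kmt5c was at 97.4 and 64.7 CPM against 45.5 and 57.5 CPM. Reads on phf8, which include the injected mRNA, came to 2532 and 1405 CPM in xRescue and 2813 and 2028 CPM in xPhf8.

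The members together took 4.99% and 3.46% of all gene reads in the xRescue libraries, against 0.987% and 0.900% in the xPhf8 libraries. The Wilson 95% intervals of these shares ran from 4.982 to 4.998% and from 3.45 to 3.47% in xRescue, and from 0.983 to 0.991% and from 0.898 to 0.903% in xPhf8, and cover counting error only. The ratio of mean CPM, xRescue over xPhf8, had a median of 3.58 over the members, with quartiles of 2.85 and 5.53 and a range of 2.15 to 45.6. Over the 6469 genes averaging at least 20 CPM with reads in all 4 libraries, this median was 1.04. The ratio between the nearest libraries, the smaller xRescue over the larger xPhf8 value, was at least 3 in 97 members, at least 5 in 35 and at least 10 in 11. Most members thus lay within a few-fold of the limit, and a small number stood far above it.

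**Figure D1:**
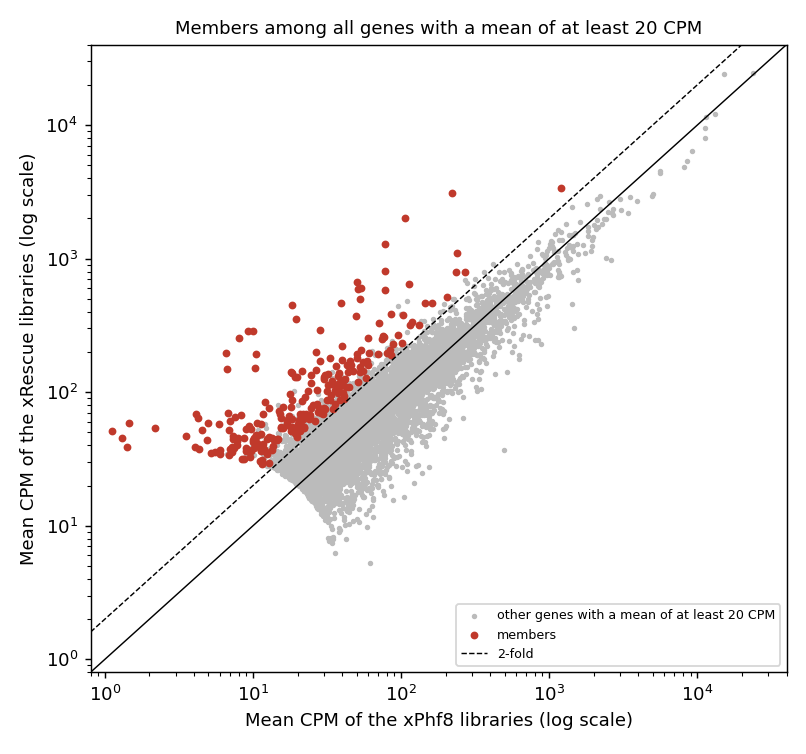
Mean CPM of the xRescue libraries against the mean CPM of the xPhf8 libraries for the genes averaging at least 20 CPM, both on log scales, with the 247 members in red. The solid line marks equal means and the dashed line a ratio of 2. The members lie above the dashed line and spread from a ratio of 2.15 to 45.6.

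The least reads any member had were 793 and 404 in the xRescue libraries and 9 and 19 in the xPhf8 libraries, so no member rested on a group without reads. Just inside the fold limit were aen (121.8 and 130.2 CPM against 60.8 and 22.7 CPM), nup210 and ints6, with nearest ratios of 2.005, 2.009 and 2.009. Just outside it were pik3r3, atp7a and gjb2, with nearest ratios of 1.9997, 1.9995 and 1.998. The members nearest to the level limit were LOC100494082 at 20.1, egr1 at 20.1 and kansl1 at 20.2 CPM on average, and the genes just below it were flnc at 19.5, map3k8 at 19.0 and not at 19.0 CPM. Library scaling moved the limits as well. On TMM-adjusted library sizes the median log2 ratio of all genes with at least 20 CPM was lower by 0.15 (-0.09 instead of 0.06), and that of the members was 1.68 instead of 1.84.

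The gene lists used below were written with earlier results of these data known. The shares of their genes that were members are therefore a description and no test, also where a share over all named genes stands beside them. Of the gene lists, that of AP-1 subunits and their relatives stood highest above xPhf8. Of 10 listed genes of this kind with a name and a mean of at least 20 CPM, 8 were members (80.0%), where 8.07% of all 3059 named genes at this level were members. The listed genes had a median log2 ratio of 3.49, beside 0.03 over those named genes. The FOS family was represented by fosb, which encodes a partner of JUN proteins and was at 55.6 and 46.6 CPM in xRescue against 1.80 and 0.439 CPM in xPhf8. This was the largest mean ratio of all members, 45.6. The founding family member fos was at 384 and 515 CPM in xRescue, against 14.4 and 22.1 CPM in xPhf8. The replicates of each group lay close together beside the gap between the groups, with xRescue replicate 2 the higher for fos and replicate 1 for fosb.

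The genes jun, junb and jund were all members as well. The level of jun was 378 and 323 CPM in xRescue, against 19.2 and 19.5 CPM in xPhf8, and the xPhf8 replicates were nearly equal. For junb, which in mammals restrains jun in some settings, the values were 510 and 480 CPM in xRescue and 38.1 and 67.1 CPM in xPhf8. For jund, which is abundant in many resting cells, they were 734 and 605 CPM in xRescue and 62.1 and 38.2 CPM in xPhf8. The mean ratios were thus 18.1 for jun, 9.40 for junb and 13.4 for jund. The remaining members of this list are bZIP factors that dimerise with AP-1 proteins or with each other. They were mafb, a MAF family factor, with 185 and 121 CPM in xRescue against 12.39 and 8.22 CPM in xPhf8, the stress-induced atf3, with 40.8 and 29.8 CPM against 5.33 and 5.08 CPM, and atf4, the effector of the integrated stress response, with 519 and 511 CPM against 170.2 and 235 CPM. The mean ratio of atf4, 2.54, was the smallest of the list's members.

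Immediate-early transcription factors of other classes followed. Of 14 such genes at the level limit, 7 were members (50%), and the 14 genes had a median log2 ratio of 1.32. The orphan nuclear receptor gene nr4a1 was at 178 and 212 CPM in xRescue, against 5.18 and 7.90 CPM in xPhf8, a mean ratio of 29.8. The zinc finger gene egr1, a classical serum response gene, was at 36.0 and 41.7 CPM in xRescue, against 0.338 and 2.47 CPM in xPhf8. For irf1, an interferon regulatory factor, the values were 66.6 and 71.7 CPM in xRescue and 3.004 and 5.29 CPM in xPhf8. In all of nr4a1, egr1 and irf1, xRescue replicate 2 was the higher of its group. The other members of this list were ier3, csrnp1, ier2 and cebpd, with mean ratios of 13.3, 7.54, 4.31 and 3.58. Of the 14 genes, 12 had a higher mean in xRescue and 2 had a lower one.

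Some genes listed as signal attenuators and stress kinases were also members. Of 19 such genes at the level limit, 7 were members (36.8%), with a median log2 ratio over the 19 of 1.102. Of the 19 genes, 17 had a higher mean in xRescue and 2 a lower one, and these 2 lay below xPhf8 without overlap. The cytokine signalling inhibitor socs3 was at 60.7 and 68.4 CPM in xRescue, against 0.713 and 7.81 CPM in xPhf8. Its xPhf8 replicates differed widely, but neither came near the xRescue values. For plk2, a polo-like kinase induced by serum and stress, the values were 714 and 493 CPM in xRescue and 73.0 and 34.8 CPM in xPhf8. The others were the MAP kinase phosphatase gene dusp8, the RNA-decay factor gene zfp36, which shortens the life of AU-rich messages, the growth-arrest gene gadd45g, the NF-κB cofactor gene nfkbiz and the receptor tyrosine kinase inhibitor gene spry1. Their mean ratios lay between 2.73 for spry1 and 4.39 for dusp8.

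**Figure D2:**
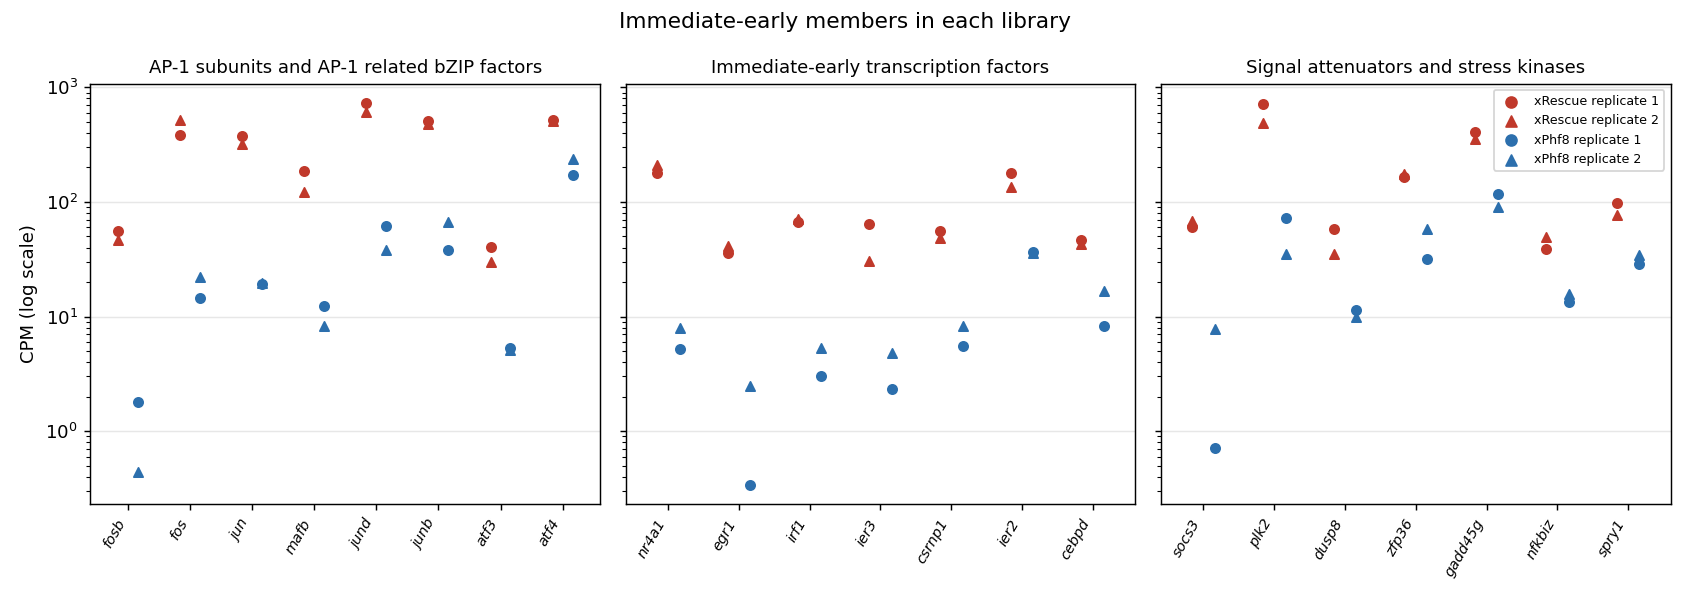
CPM on a log scale of the members on 3 gene lists in each library, xRescue in red to the left of xPhf8 in blue, circles for replicate 1 and triangles for replicate 2, with genes ordered by the ratio of means in each panel. For every gene both xRescue points lie above both xPhf8 points, as the selection requires, and the gap narrows from fosb (mean ratio 45.6) to atf4 (2.54).

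Genes for secreted and cell surface products of the response were represented by 5 of 10 at the level limit (50%), and the 10 genes had a median log2 ratio of 2.34. The metalloprotease gene adamts1 was at 230.2 and 153 CPM in xRescue, against 13.1 and 7.90 CPM in xPhf8, a mean ratio of 18.2. The matricellular gene cyr61 (ccn1), a target of YAP and of serum response factor, was at 213 and 147 CPM in xRescue, against 29.5 and 36.3 CPM in xPhf8. The lipolysis inhibitor gene g0s2 was at 324 and 415 CPM in xRescue, against 28.8 and 70.1 CPM in xPhf8. The receptor gene ptafr, for platelet-activating factor, had a mean ratio of 7.03.

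A further group was made up of chromatin and transcription regulators, with smaller ratios than the AP-1 genes. Of 33 listed genes at the level limit, 21 were members (63.6%), the median log2 ratio of the 33 was 1.55, and 30 of them had a higher mean in xRescue. The mean ratios of the members named here lay between 2.60 for the histone acetyltransferase gene crebbp and 5.48 for setd1a. The methyltransferase genes for lysine 4 of histone H3 were represented by setd1a, with 61.0 and 55.9 CPM in xRescue against 9.99 and 11.3 CPM in xPhf8, and by kmt2b, with 143 and 110.3 CPM against 27.9 and 32.1 CPM. In both genes xRescue replicate 1 was the higher of its group, and xPhf8 replicate 1 the lower.

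Nucleosome remodelling genes formed a subgroup of the same list. For srcap, whose product exchanges histone H2A for H2A.Z, the values were 111 and 123 CPM in xRescue and 25.5 and 23.7 CPM in xPhf8. The BAF subunit gene arid1a and the NURF subunit gene bptf had mean ratios of 3.47 and 3.40. Genes for the transcription machinery were polr2a, the largest subunit of RNA polymerase II, with 239.5 and 263 CPM in xRescue against 60.1 and 88.0 CPM in xPhf8, the PAF complex gene ctr9, and hexim1, the inhibitor of the elongation kinase P-TEFb. The mean ratios of ctr9 and hexim1 were 3.58 and 2.84. The demethylase gene jmjd3 (kdm6b), which acts on lysine 27 of histone H3, was at 145 and 176 CPM in xRescue and at 33.3 and 53.3 CPM in xPhf8. The remaining members of the list were bcl9, emsy, spen, kat6a, setd5, arid4b, kansl1, hdac4, ncoa6 and ski, with mean ratios between 2.78 for setd5 and 4.27 for bcl9.

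Other pathways contributed few members. In the Notch pathway 3 of 10 genes at the level limit were members (30%). They were the receptor gene notch1, with 424 and 345 CPM in xRescue against 82.9 and 89.3 CPM in xPhf8, and the repressor genes hes1 and hes2. The level of hes2 was 53.3 and 37.4 CPM in xRescue, against 2.07 and 0.531 CPM in xPhf8, one of the largest mean ratios of all members at 34.9, while that of hes1 was 4.31.

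Regulators of the early embryo had 5 members of 12 genes at the level limit (41.7%), and all 12 had a higher mean in xRescue, with a median log2 ratio of 1.75. The vegetal T-box gene vegt was at 183 and 94.5 CPM in xRescue, against 27.4 and 9.08 CPM in xPhf8. The BMP antagonist gene chrd was at 39.1 and 38.7 CPM in xRescue, against 12.3 and 2.101 CPM in xPhf8. The BMP target gene ventx2.2, the apelin receptor gene aplnr and the Wnt receptor gene fzd7 had mean ratios of 3.27, 3.45 and 3.81. All 5 were higher in xRescue replicate 1 than in replicate 2. On TMM-adjusted sizes 16 of the 25 listed genes lay above xPhf8 without overlap and 1 below, where 21.03% and 22.44% of all genes tested did. On column sums 18 of 25 lay above and 0 below, where 25.7% of all genes tested lay above. Over the named genes averaging at least 20 CPM, 32.1% lay above.

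The p53 pathway had 4 members of 11 genes (36.4%), namely mdm2, the ubiquitin ligase that restrains p53, with 513 and 422 CPM in xRescue against 198 and 91.6 CPM in xPhf8, and aen, eda2r and tp53bp2. Heat shock and unfolded protein response genes had 2 members of 15 (13.3%). These were the transcription factor genes hsf1, with 68.4 and 63.8 CPM in xRescue against 22.8 and 19.8 CPM in xPhf8, and ddit3 (CHOP), with 44.7 and 61.6 CPM against 8.30 and 9.56 CPM. No chaperone gene on the list was a member. Of 22 cell cycle genes at the level limit, 0 were members, and 14 of them had a higher mean in xRescue and 8 a lower one. In total 65 members were on a list and 182 were on none.

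**Figure D3:**
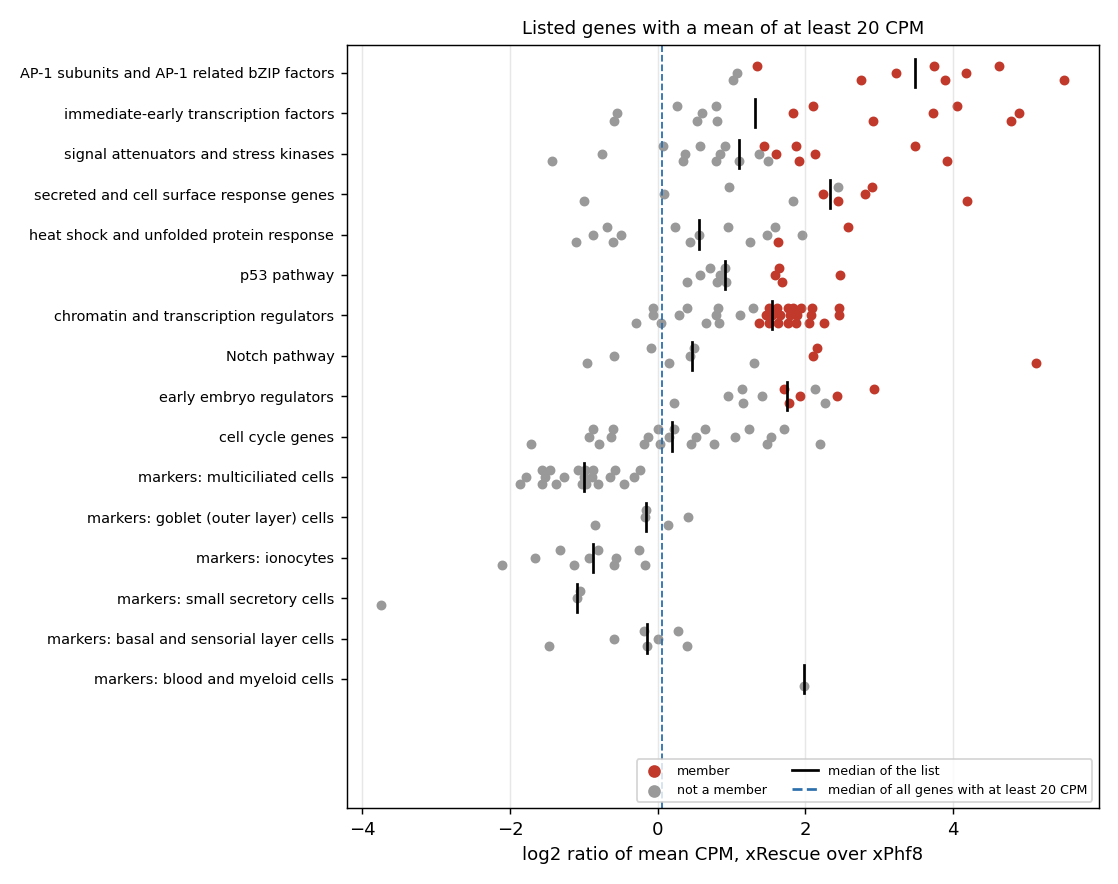
The log2 ratio of mean CPM, xRescue over xPhf8, for listed genes averaging at least 20 CPM, by list, with members in red and other genes in grey. Not every list is drawn, and a list not reported here is left out. Black bars give the median of each list and the dashed line the median of all genes at this level (0.06). The AP-1 list has its median at 3.49 and the multiciliated cell markers have theirs at -0.99.

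The members with the highest CPM were of other kinds. CPM is not corrected for transcript length, so that these genes took the most reads and need not have had the most molecules. The splicing factor gene srsf5 was at 3868 and 2927 CPM in xRescue, against 1288 and 1099.9 CPM in xPhf8. The heterogeneous nuclear ribonucleoprotein gene hnrnpa2b1 was at 771 and 523 CPM in xRescue, against 105 and 122 CPM in xPhf8, and the nuclear import gene kpna4 was at 816 and 771 CPM against 308 and 234 CPM. The hexokinase domain gene hkdc1 was at 941 and 646 CPM in xRescue, against 245 and 226 CPM in xPhf8. LOC100145165, known only by its locus number, was at 1428 and 757 CPM against 254 and 224 CPM. Among these, kpna4 had the most even xRescue replicates. The member ankrd37, an ankyrin repeat gene that hypoxia induces in mammals, was at 65.2 and 43.2 CPM in xRescue against 2.03 and 2.31 CPM in xPhf8, but more reads lay on its opposite strand than on its own in at least 1 library.

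Some of the most frequent members were neighbours in the genome. RefSeq entries of another assembly (UCB_Xtro_10.0) were used for gene order, without coordinates, and 228 members matched 1 entry each. Of these, 18 had a member as a neighbour, in 12 pairs, beside 469 neighbouring pairs among the 2925 named and matched genes at the level limit. The sets differ in size, so these counts of pairs cannot be compared directly. Most of the 12 pairs lay in the runs described below. A run of 9 members on chromosome 8 held irg1 (acod1lb), phyhdlb, gatd3ala, phyhdla.3, phyhdla.2, phyhdla.1, satpa, acod1la and gatd3alb.1, and 1 RefSeq entry among them matched no identifier. In mammals acod1 encodes the enzyme that makes itaconate in activated macrophages, and phyhd genes are named for a dioxygenase domain. The 9 genes summed to 5823 and 2980.3 CPM in xRescue, against 415 and 124 CPM in xPhf8, a ratio of 16.3 between the means. Within the run satpa was at 2425 and 1631 CPM in xRescue, against 134 and 79.0 CPM in xPhf8. The level of irg1 was 415 and 97.5 CPM in xRescue, against 9.01 and 7.09 CPM in xPhf8, and that of acod1la was 209 and 88.1 CPM against 9.27 and 4.04 CPM.

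In the same run phyhdla.3 was at 1078 and 547 CPM in xRescue, against 139 and 16.9 CPM in xPhf8, and phyhdlb was at 469.9 and 108 CPM in xRescue against 17.6 and 0.924 CPM in xPhf8. All 9 genes were higher in xPhf8 replicate 1 than in replicate 2, and 8 of 9 were higher in xRescue replicate 1, with gatd3alb.1 the exception. The run was bounded by atp7a, which missed the fold limit at 105.6 and 70.0 CPM in xRescue against 22.3 and 35.01 CPM in xPhf8, and by gatd3alb.2, which had no reads in xRescue, and zbtb33, which was no member. A second run on chromosome 8, beside mir223 in RefSeq order, held LOC108648340, LOC100497952 and LOC100498107, which no source used here names further. They summed to 6532 and 2332 CPM in xRescue, against 397 and 209 CPM in xPhf8. LOC100498107 alone was at 4407 and 1777 CPM in xRescue, against 278 and 161 CPM in xPhf8. Several of these genes are tandem copies. Only uniquely mapped reads were counted, so reads shared by near-identical copies are missing and the level of any 1 copy is uncertain.

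**Figure D4:**
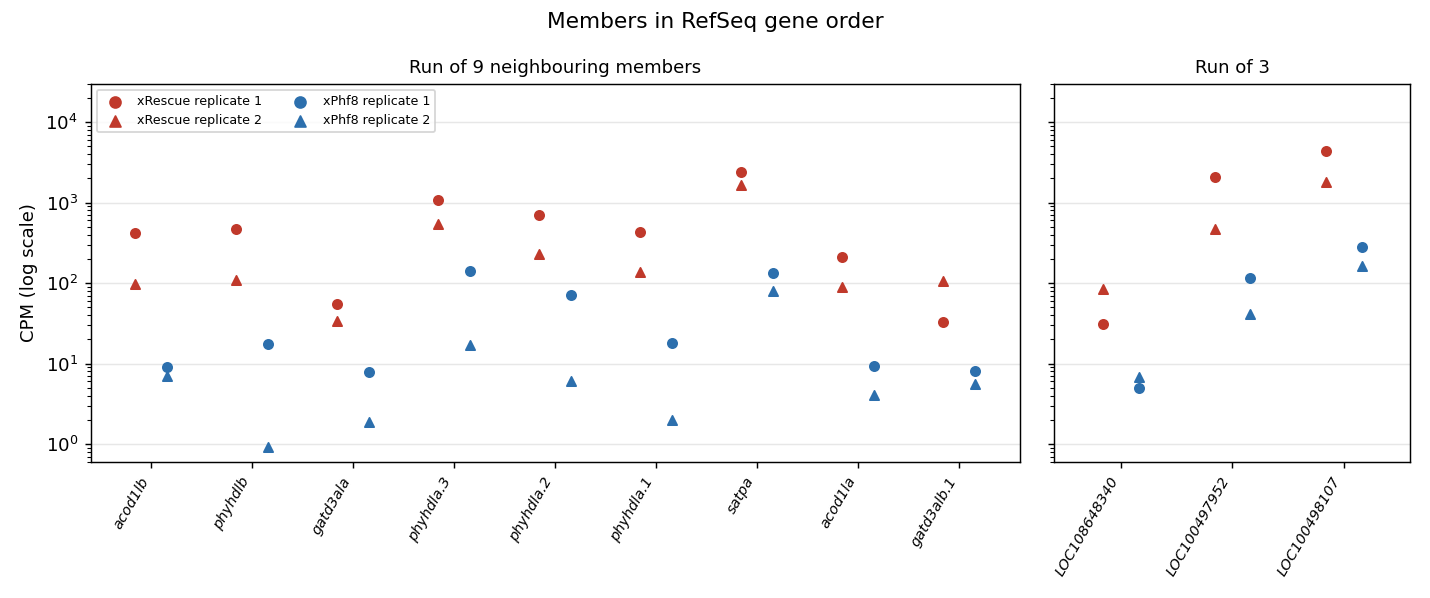
CPM on a log scale of the members in the 2 runs of neighbouring genes, in RefSeq order from left to right and not to scale, xRescue in red to the left of xPhf8 in blue, circles for replicate 1 and triangles for replicate 2. All genes except gatd3alb.1 and LOC108648340 are higher in xRescue replicate 1 than in replicate 2. The symbol acod1lb stands for irg1.

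In the assembly the counts were made on (v9.1), 37 members were placed on chromosome 8, which is 14.98% of the members beside 9.68% of all named genes at the level limit. On unplaced scaffolds there were 60 members, or 24.3%, beside 8.70% of the named genes at that level. The scaffold members had a median mean ratio of 3.35 and the other 187 members one of 3.65, and 6 and 15 of the chromatin regulators fell into these sets. The members on scaffolds thus differed little in ratio from the rest.

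The replicates were compared next. The selection puts no direct limit on their difference, but it uses the smaller xRescue and the larger xPhf8 value. It can therefore shape the shares given here. Replicate 1 of xRescue was above replicate 2 in 198 of 247 members (80.2%), beside 53.3% of the 6469 genes. The median ratio of replicate 1 over 2 was 1.21 in the members and 1.03 in those genes. In xPhf8, replicate 1 was the higher in 129 members (52.2%), beside 59.8%. The xRescue replicates were within 2-fold of each other in 224 members (90.7%), beside 87.7% of the 6469 genes. The xPhf8 replicates were so in 210 members (85.0%), beside 86.4%. On this measure the members were thus near the share over all genes. Of the listed members, 7 of 8 AP-1 genes, 4 of 7 immediate-early transcription factors, 4 of 7 attenuators and 17 of 21 chromatin regulators were higher in xRescue replicate 1.

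The xRescue replicates differed by at least 4-fold in 5 members, each time with replicate 1 the higher. These were irg1, phyhdlb and LOC100497952 of the runs above, LOC101733467, with 96.1 and 22.1 CPM in xRescue against 2.215 and 0.716 CPM in xPhf8, and the nucleotide hydrolase gene dctpp1, with 62.5 and 14.95 CPM against 5.78 and 2.38 CPM. The size of these differences rests on which xRescue library is read, while both lay above xPhf8. Applied without xRescue replicate 1, the selection gave 255 genes, of which 201 were among the 247. Without xRescue replicate 2 it gave 547 genes, of which 219 were. Without xPhf8 replicate 1 it gave 533 genes and without xPhf8 replicate 2 it gave 418. Both held all 247, as they must, since leaving out an xPhf8 library can only ease both limits for a member.

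**Figure D5:**
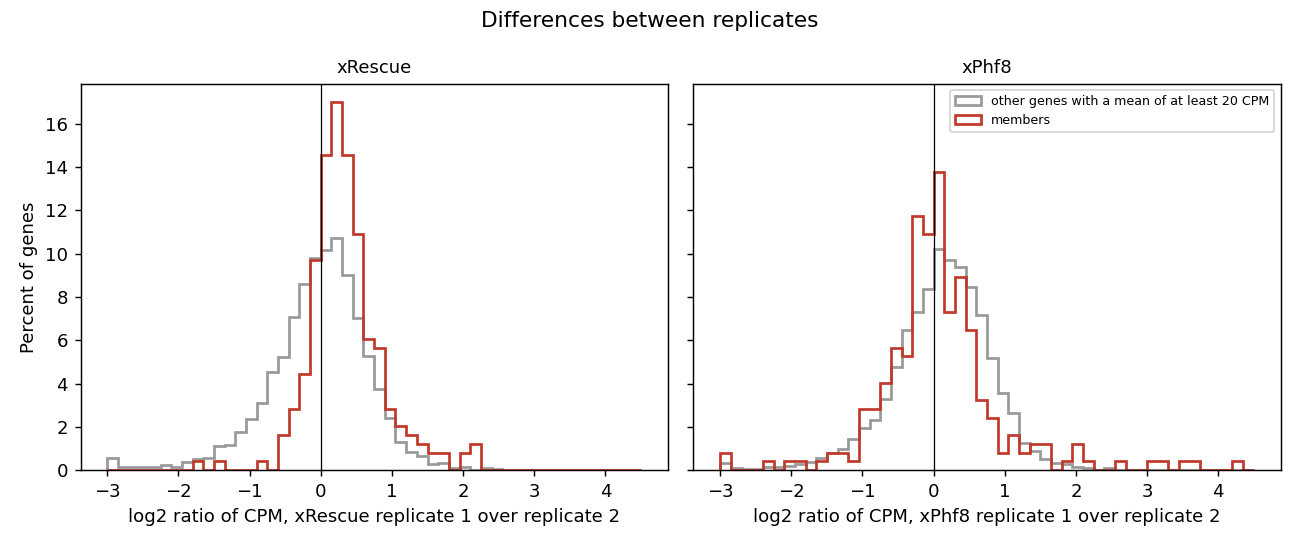
Distribution of the log2 ratio of CPM of replicate 1 over replicate 2, in xRescue (left) and xPhf8 (right), as the percent of genes per bin, for the members (red) and the other genes averaging at least 20 CPM (grey); values beyond the axis are drawn in the end bins. In xRescue the members are shifted to the right of 0 (80.2% above it), while in xPhf8 they lie around 0 (52.2%).

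The comparison of xRescue with xPhf8 over all 14716 genes with at least 1 read in 3 libraries shows how far such differences exceeded the spread between replicates. With edgeR's quasi-likelihood test, 5 genes had an adjusted p under 0.05, or 0.034% of the genes as higher and 0 as lower, and all 5 were members. They were jun, fos, jund, nr4a1 and satpa, each with an adjusted p of 0.0462 by edgeR and log2 fold changes of 4.02, 4.47, 3.60, 4.74 and 4.11. When 1 library was left out, 1 group had a single library, which was assumed to vary like the other group, and edgeR called from 15 genes (without xRescue replicate 1) to 337 (without xRescue replicate 2), with 23 and 26 when xPhf8 replicate 1 or 2 was left out. The 5 genes were among these calls, which rest on the values that selected them and give no independent support. Over all genes 751 were higher and 688 lower at an unadjusted p under 0.05. The test with DESeq2, the study's tool, called 339 genes higher, or 2.3% of the genes, of which 203 were members, and 201 lower, of which 0 were. Since the members were selected by this contrast, these counts are given as a description and do not support the difference. For fosb, with the largest ratio, the adjusted p was 0.157 by edgeR and 3.071e-12 by DESeq2.

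By list, edgeR called 3 of 14 tested AP-1 genes and 1 of 18 immediate-early transcription factors as higher, where DESeq2 called 9 and 8. Of the 39 chromatin regulators edgeR called 0, with 25 higher at an unadjusted p under 0.05, and DESeq2 called 23 as higher. Of the 24 attenuators edgeR called 0, with 13 higher and 1 lower at an unadjusted p under 0.05, and DESeq2 called 11 as higher. For the 27 cell cycle genes edgeR called 0, with 8 higher and 4 lower at an unadjusted p under 0.05, and DESeq2 called 4 as higher and 1 as lower. DESeq2 called no gene of the AP-1, transcription factor, attenuator or chromatin lists as lower. Over all 14716 genes tested, edgeR called 0.034% as higher and DESeq2 2.3%. At an unadjusted p under 0.05 by edgeR, 751 of them were higher and 688 lower. Most of these lists hold members, which this contrast selected, so the counts describe the lists and do not support a difference.

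Markers of some cell types that a cap can hold also differed between the groups. The sums of multiciliated and small secretory cell markers were lower in both xRescue libraries, while those of ionocyte, goblet and basal layer markers overlapped. In bulk RNA fewer cells of a type and less RNA per cell cannot be told apart. The xPhf8 caps are no untreated baseline for these markers, since the paper reports more multiciliated cells with this mRNA alone. No member was on a marker list. The multiciliated cell markers summed to 1639 and 2363 CPM in xRescue, against 4366 and 2933 CPM in xPhf8, and 20 of their 27 identifiers were lower in xRescue without overlap, beside 17% of all genes tested. On TMM-adjusted sizes 24 of 27 were, beside 22.44% of all genes tested. On column sums 16 of the 21 markers averaging at least 20 CPM were, beside 28.2% of the named genes at this level. By edgeR 0 of these 27 had an adjusted p under 0.05, with 14 lower at an unadjusted p under 0.05, and DESeq2 called 6 as lower. Ionocyte markers summed to 182 and 946 CPM in xRescue, against 833 and 1197 CPM in xPhf8, and the low value was that of xRescue replicate 1, in which the carbonic anhydrase gene ca2 had no reads. Small secretory cell markers summed to 155 and 353 CPM in xRescue, against 511 and 1403 CPM in xPhf8.

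Basal layer markers, with the epidermal regulator gene tp63 and the adhesion genes epcam and cdh1, summed to 3628 and 3418 CPM in xRescue and to 3200.0 and 4042 CPM in xPhf8, and goblet cell markers to 2761 and 4197 CPM and to 2307 and 3986 CPM. Of the 7 basal layer markers, 3 had a higher mean in xRescue and 4 a lower one. The largest values were those of epcam, at 1768 and 1407 CPM in xRescue against 1226 and 1175 CPM in xPhf8. Among the lower was tp63, at 94.6 and 306 CPM in xRescue against 288 and 826 CPM in xPhf8. Epidermal markers were thus read in all libraries, but not all at an even level. Markers of endoderm, mesoderm, neural tissue and blood summed to low levels. The endoderm and mesoderm sums were higher in both xRescue libraries than in either xPhf8 library. Endoderm markers, of which 4 could be read, summed to 89.5 and 54.8 CPM in xRescue, against 28.2 and 14.2 CPM in xPhf8. Mesoderm markers, with 2 read, summed to 62.5 and 23.1 CPM against 11.002 and 9.49 CPM, neural markers, with 6 read, to 89.5 and 57.4 CPM against 62.5 and 69.5 CPM, and blood markers, with 6 read, to 126 and 62.0 CPM against 65.3 and 12.45 CPM. Of the blood markers, the complement receptor gene c3ar1 was at 106 and 53.6 CPM in xRescue against 35.2 and 4.99 CPM in xPhf8, and the transcription factor gene cebpa was at 18.7 and 7.33 CPM against 0.3 and 4.25 CPM. The marker ptprc went the other way, with 1.55 and 1.07 CPM in xRescue against 29.8 and 1.89 CPM in xPhf8. The defining myeloid genes spib, spi1 and mpo had no reads in either xRescue library or in xPhf8 replicate 1, and 0.762, 0.323 and 0.231 CPM in xPhf8 replicate 2. The part of these marker differences in the levels of the members was not tested.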

How the data were processed

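Total RNA of pooled NF16 animal caps was depleted of ribosomal RNA and made into directional libraries. The authors aligned reads with STAR (2.7.1a) to the Xenbase assembly v9.1, with gene models converted by Cufflinks, and deposited raw read counts per gene for each library, unstranded and for either strand. Column 4, the counts for the reverse strand, was used as deposited, and column 3 as antisense reads. The labels number 2 biological replicates per group but do not say how these were obtained, and p-values measure the spread between them. Reads on features with no identifier (4.18 to 9.90% of assigned reads) were left out. Reads are not molecules, so that intervals cover counting error only.

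CPM were computed on column sums. Genes detected by 1 read or more in 75% of libraries were tested with edgeR (4.0.16, R 4.3.3) on TMM-normalised counts without covariates, with Benjamini-Hochberg adjustment over all genes. DESeq2 (1.42.0), DESeq2's size factors, other filters, unstranded counts, other limits, a replicate block and leaving out each library were tried. Both tests were tried on simulated data.

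The files hold identifiers only. Names of 6622 identifiers were taken from the study's supplementary tables. These were at hand in part and include this comparison, so that list coverage is partial. All 247 members had a name, but only 3059 of the 6472 identifiers averaging at least 20 CPM did. Members were thus named more often, and made up 8.07% of the named and 3.82% of all identifiers at this level. Locus numbers and synonyms were matched to RefSeq. Sequences, promoters and proteins were not analysed here.

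The members and the 20 gene lists were chosen with earlier results of these data known. Named were members on a list, the 15 with the largest nearest ratio, the 10 with the highest mean CPM, the 3 genes nearest to each limit on either side and members whose xRescue replicates differed by at least 4-fold. Some items of the lists are not reported here.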

Additional observations from a re-analysis of the deposited data

Results flagged for a closer look

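Reads on the strand opposite to the members, which no comparison of genes used, averaged 245.4 CPM in xRescue (SD 66.57, n = 2) and 68.01 CPM in xPhf8 (SD 4.767, n = 2). They are given because they were more frequent in either xRescue library than in xPhf8, with 292 and 198 CPM against 71.4 and 64.6 CPM. As a share of the sense reads of the members, they were 0.586% and 0.573% in xRescue and 0.723% and 0.718% in xPhf8, so that the order was turned round. Over all genes this share was 2.46% and 2.75% in xRescue and 1.85% and 2.19% in xPhf8. In 15 members the antisense reads exceeded 10% of the sense reads in at least 1 library, and ankrd37 was the member with more antisense than sense reads.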

How the results depend on the processing

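The number of members followed the limits by construction, with 122 genes at a mean of at least 50 CPM, 557 at a fold of 1.5 and 97 at a fold of 3. It was 189 on TMM-adjusted sizes, 193 on DESeq2's size factors, 257 with unstranded counts and 342 at a mean of at least 10 CPM. Leaving out 1 library gave 255 to 547 genes. The members' median log2 ratio stayed between 1.64 and 2.01 over all scalings and libraries left out, against 1.84. The selection keeps this median high, so its range is a description and no test. Over all genes edgeR called 5 genes, with DESeq2's size factors or unstranded counts also 5, with at least 10 reads in every library 25, without a filter on low counts 726, and DESeq2 called 540. The members among these calls numbered 5, 24 with at least 10 reads, 179 without a filter and 203 with DESeq2. Leaving out 1 library gave 15 (xRescue replicate 1) to 337 calls (xRescue replicate 2), of which 15 to 88 were members. The other counts were 23 without xPhf8 replicate 1 and 26 without xPhf8 replicate 2. The cause of these different counts was not tested. In edgeR the replicate block gave 700 calls, 333 of them higher (2.26%), of which 192 were members. The fold of 2 within both same-numbered pairs gave 365 genes, which hold the 247 by construction. The labels do not say that a number marks a shared batch. The deviations from the mean of the group, set against each other between libraries that share a number, correlated at 0.217 over all tested genes and at 0.452 over the members, which are genes and not replicates, and with 2 pairs this does not establish pairing. Of the values of the 89 named genes under these alternatives, 841 stayed within the spread between replicates, 48 moved beyond it and 0 changed sign. These genes are members or lay at the limits, with both xRescue values well above both xPhf8 values. A change of sign was therefore hardly possible, and its absence gives no support. The members had at least 9 reads in every library.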

Other observations

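Members outside the lists were looked through after their values had been seen, and the genes below were picked from them in this way, so that they describe the set and carry no test. Several act on messages in the nucleus. The nuclear pore gene nup98 was at 259 and 140 CPM in xRescue, against 27.8 and 25.7 CPM in xPhf8, and the mRNA export gene nxf1 was at 131 and 91.25 CPM against 43.4 and 34.15 CPM. The speckle protein gene son was at 337 and 329 CPM in xRescue, against 114 and 122 CPM in xPhf8, and hnrnpa3 was at 159 and 147 CPM against 38.6 and 66.9 CPM. Genes of nutrient sensing and autophagy were also found. These were tsc1, with 48.2 and 48.8 CPM in xRescue against 11.5 and 11.1 CPM in xPhf8, ulk1, with 336 and 175 CPM against 70.3 and 49.1 CPM, and ambra1, with 86.25 and 64.8 CPM against 15.5 and 10.2 CPM.

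Regulators of differentiation and polarity were present as well. The SOX factor gene sox9 was at 67.8 and 49.75 CPM in xRescue, against 2.63 and 7.27 CPM in xPhf8, and sox4 was at 146 and 139 CPM against 52.9 and 52.2 CPM. The kinase gene gsk3b was at 41.9 and 33.1 CPM in xRescue, against 3.49 and 5.13 CPM in xPhf8. The polarity genes scrib, with 77.4 and 55.3 CPM against 17.6 and 17.5 CPM, and pard3, with 118 and 90.3 CPM against 29.0 and 42.6 CPM, had mean ratios of 3.78 and 2.91. In sox4, son and tsc1 the replicates of each group were nearly equal.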
